A study of Sus scrofa with 12 samples.

Results

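Exon-intron fragments are unspliced stretches of RNA that were assembled from an exon straight into the intron beside it. They were taken from the transcript assemblies of 12 Iberian pigs, made from loin muscle (longissimus dorsi, LD). A fragment is a transcript of 1 exon, at least 200 bases long, that lies inside an annotated gene on a chromosome, overlaps an exon of that gene on the same strand or without a strand, and runs more than 10 bases into an intron. The assemblies held 14711 of them among 431096 transcripts of at least 200 bases, or 3.41%. Fragments of different libraries that overlapped within the same gene were counted as 1 locus, which gave 5690 loci, or 3.75% of the 151744 distinct transcripts. The loci lay in 4246 host genes of the 24270 annotated genes with an intron. A further 4159 transcripts crossed from exon to intron but reached past an end of the gene, and they were left out. At the threshold itself, 280 fragments had a longest intron stretch of 11 to 20 bases, with a median of 0.509 FPKM, and 263 transcripts left out had one of 1 to 10 bases, with a median of 0.561 FPKM. FPKM is the number of sequenced fragments scaled to the length of the transcript and to all mapped fragments of the library, as the authors' assembler gave it, and it allows levels of transcripts of different length to be compared.

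The pigs were castrated males of a closed, purebred Iberian population, slaughtered at about 17 months after free-range fattening on acorns and grass. The 6 pigs with the highest breeding value for intramuscular fat (IMF) form the H group and the 6 with the lowest the L group, no siblings among them, with labelled IMF of 10.62 to 13.8% in H and 1.7 to 2.28% in L. The mean IMF that the study's text gives for L is not the mean of these labels, and the labels are used here. The groups differ in breeding value and share breed, sex, feeding and tissue, and several batches of fattening and slaughter entered, but no source used here ties a pig to its batch, so batch and group cannot be told apart. Total RNA of each pig gave 1 paired-end library, and whether poly(A) RNA was selected or strand was kept is not stated. The coverage of the assemblies was 9.88 to 13.5 gigabases in H and 10.6 to 17.6 gigabases in L, and each library held 29961 to 43664 transcripts of at least 200 bases. The summed level of 7 muscle fibre markers was 31236 to 50197 FPKM in H and 31028 to 43745 FPKM in L, as the tissue label says. In whole tissue, fewer cells of a type and less RNA per cell cannot be told apart. An absent transcript is listed at 0, which means that it was not assembled and not that the RNA was missing.

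A gene is copied into pre-mRNA that holds its introns, and the spliceosome removes each intron between the donor site at its 5′ end and the acceptor site at its 3′ end. Most introns are removed while the gene is still being copied, and the mRNA of a tissue is mainly spliced. RNA that spans an exon and an intron can be a nascent or unfinished pre-mRNA, an mRNA with a retained intron, a transcript that starts or ends inside the intron, or an exon longer than annotated. Short reads from 1 assembled exon do not separate these kinds.

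The sequences of the boundaries were read from the Sscrofa11.1 assembly of RefSeq. Exon bases are in capitals and intron bases in lower case, 5′ to 3′ on the strand of the host gene. The first set holds the 3 introns of at most 250 bases, between coding exons, that were covered whole in all 12 libraries. They are shown because the fragments contain the complete intron with both its exons. They lie in LOC110260402, a gene annotated as similar to a collagen chain (chr4:1687015-1687261 and chr4:1687574-1687732, minus strand), and in LOC100524794 (chr3:24320880-24321166, minus strand). At this locus of LOC100524794, 12 of 16 fragments also touched an exon of a second gene, so the gene that these belong to is uncertain.
LOC110260402, intron between exons 5 and 6: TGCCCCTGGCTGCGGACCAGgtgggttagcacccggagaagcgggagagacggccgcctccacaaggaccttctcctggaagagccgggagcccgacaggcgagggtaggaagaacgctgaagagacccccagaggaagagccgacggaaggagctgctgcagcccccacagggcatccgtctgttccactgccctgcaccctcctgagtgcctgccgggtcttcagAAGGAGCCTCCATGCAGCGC
LOC110260402, intron between exons 4 and 5: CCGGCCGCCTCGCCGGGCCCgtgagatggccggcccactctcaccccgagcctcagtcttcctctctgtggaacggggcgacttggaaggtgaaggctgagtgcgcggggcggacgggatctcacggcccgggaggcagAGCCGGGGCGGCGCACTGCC
LOC100524794, intron between exons 26 and 27: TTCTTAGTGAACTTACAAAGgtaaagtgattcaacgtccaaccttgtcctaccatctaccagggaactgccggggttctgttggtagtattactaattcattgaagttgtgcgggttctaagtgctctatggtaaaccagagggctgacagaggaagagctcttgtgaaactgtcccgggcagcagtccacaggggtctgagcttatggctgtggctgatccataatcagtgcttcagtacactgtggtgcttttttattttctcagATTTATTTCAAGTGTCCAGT

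The second set comes from HNRNPH1, which encodes a nuclear protein that binds RNA and regulates splicing (chr2:78967631-78967756 and chr2:78967789-78967884, plus strand). These are 2 of the 11 introns that its fragment covered whole in 10 libraries, and they were chosen after the levels were seen because they are short and follow each other.
HNRNPH1, intron between exons 7 and 8: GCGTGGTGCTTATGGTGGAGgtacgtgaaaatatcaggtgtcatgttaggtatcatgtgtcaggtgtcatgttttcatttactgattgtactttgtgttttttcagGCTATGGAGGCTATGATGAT
HNRNPH1, intron between exons 8 and 9: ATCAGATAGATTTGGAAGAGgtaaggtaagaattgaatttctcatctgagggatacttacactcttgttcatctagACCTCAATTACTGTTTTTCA

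The third set holds the acceptor boundaries crossed at 3 loci with the smallest p between the groups. They lie in REM1 (chr17:35218099-35218218, plus strand), in the lncRNA gene LOC100526084 (chr17:32603738-32603857, plus strand) and in PPP6R3 (chr2:4404213-4404332, minus strand). Not every library with a locus crossed its boundary. The fragments of H5 and L5 did not reach that of LOC100526084, and those of L2 and L3 did not cross that of PPP6R3.
REM1, start of exon 5: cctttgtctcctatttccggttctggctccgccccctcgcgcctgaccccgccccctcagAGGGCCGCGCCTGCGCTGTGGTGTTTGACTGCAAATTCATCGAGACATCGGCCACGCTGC
LOC100526084, start of exon 2: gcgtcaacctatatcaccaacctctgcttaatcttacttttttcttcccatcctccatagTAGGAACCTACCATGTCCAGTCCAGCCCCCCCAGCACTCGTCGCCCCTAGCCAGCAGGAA
PPP6R3, start of exon 25: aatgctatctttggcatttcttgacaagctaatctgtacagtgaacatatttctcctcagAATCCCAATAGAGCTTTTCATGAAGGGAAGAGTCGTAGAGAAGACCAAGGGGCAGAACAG

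Fragments were short and weak. Their length ran from 200 to 30544 bases with a median of 1577, and the intron took a median of 667 bases, or 56.9% of the fragment. Their level had a median of 0.401 FPKM, with 61.4% of fragments under 0.5 FPKM and 90 fragments at 10 FPKM or more. The largest class, 5778 fragments (39.3%), ran from an exon back past its acceptor site alone. Fragments that ran past a donor site alone numbered 2920 (19.8%), and 2961 (20.1%) extended on both sides of an exon. The other 3052 (20.7%) covered at least 1 whole intron with both its exons, and 1021 of them covered 2 introns or more. The assembler gave 7390 fragments (50.2%) no strand, and 1425 (9.69%) also touched an exon of a second gene. A spliced transcript of the host gene was assembled in the same library for 72.2% of fragments.

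The ends of genes held most of these fragments. A last exon was touched, without a first exon, by 6749 fragments (45.9%), a first exon without a last one by 2550 (17.3%), and internal exons alone by 4996 (34.0%). Of the fragments past an acceptor alone, 82.3% lay on a last exon, and of those past a donor alone, 51.1% lay on a first exon. In protein-coding hosts, 78.1% of fragments held coding bases. The polyadenylation signal AATAAA, searched on the strand of the gene, was found in the last 50 bases of 19.8% of fragments past an acceptor alone, close to the 20.7% of 219463 spliced transcripts. Spliced transcripts with the same start and end were counted as 1 here, whereas fragments were counted in each library. AATAAA was found in the last 50 bases of 5.07% of fragments past a donor alone, and in the first 50 bases of 2.84% of all fragments. A run of AAAAAA in the genome stood within 30 bases after the 3′ end of 3.40% of fragments and within 30 bases before the 5′ end of 4.02%. For spliced transcripts the shares were 3.26% after the 3′ end and 0.920% before the 5′ end, and 0.832% held AATAAA in the first 50 bases. These shares count letters in fixed windows and name no site.

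The crossed splice sites were checked against the spliced transcripts of the same files. Of 12622 crossings of an annotated donor site, 57.6% were at a site that a spliced transcript used in some library, and 33.1% at a site used in the same library. Of 15960 crossings of an acceptor site, the shares were 67.8 and 43.7%. No crossed site was used in any library for 5039 fragments (34.3%), so that for these the exon border rests on the annotation alone. The share with a used site fell with recurrence, from 71.4% for loci found in 1 library to 68.2% for 2 to 5, 60.2% for 6 to 11 and 55.2% for all 12 libraries. It was 68.9% in protein-coding and 49.9% in lncRNA hosts. Fragments share libraries and loci, so these shares are given without a test.

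The fragments covered 2527 distinct introns whole, and these were short. Their median length was 438 bases, against 1663 bases for the 45266 other introns of the same host genes, and 34.4% against 14.7% were of at most 250 bases. Among introns of at most 250 bases the GC content was similar, with a median of 59.5% for 870 covered introns and 61.2% for 6663 others. Of the covered introns, 179 were covered in at least 6 libraries and 5 in all 12. For 67.2% of the introns covered whole, spliced transcripts of 1 library used both ends, which need not have joined them to each other. A fragment must be longer than an intron to cover it whole, and the part of fragment length in this difference was not tested.

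The intron part of a locus differed from all introns of its host in repeats more than in GC. Over 5292 loci with at least 50 intron bases, the part inside the fragment had a median GC content of 46.8% and a median repeat-masked share of 21.6%. The introns of the host genes, the fragment's part included, had medians of 45.4 and 33.9%. The fragment's part was less repeat-masked than its host's introns at 66.8% of loci and had more GC at 51.0%. For the 572 such loci found in at least 6 libraries, the masked share was 24.2% against 35.0%.

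Recurrence was low. Of the 5690 loci, 2904 (51.0%) were found in 1 library, 580 (10.2%) in at least 6 and 33 in all 12. Single-exon transcripts inside introns were found in 1 library at a like share, 52.9% of 20184, and spliced transcripts, matched by their whole chain of introns, at 65.3% of 103599. At the other end the classes parted, since 3.63% of spliced transcripts and 0.580% of fragment loci were found in all 12 libraries. The matching differs between classes, by overlap for single-exon and by identical introns for spliced transcripts, so the shares are not on 1 scale. Loci found in all 12 libraries were longer and stronger than loci of 1 library, with a median length of the region shared most of 4456 against 1258 bases and a median level of 1.06 against 0.362 FPKM.

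**Figure D1:**
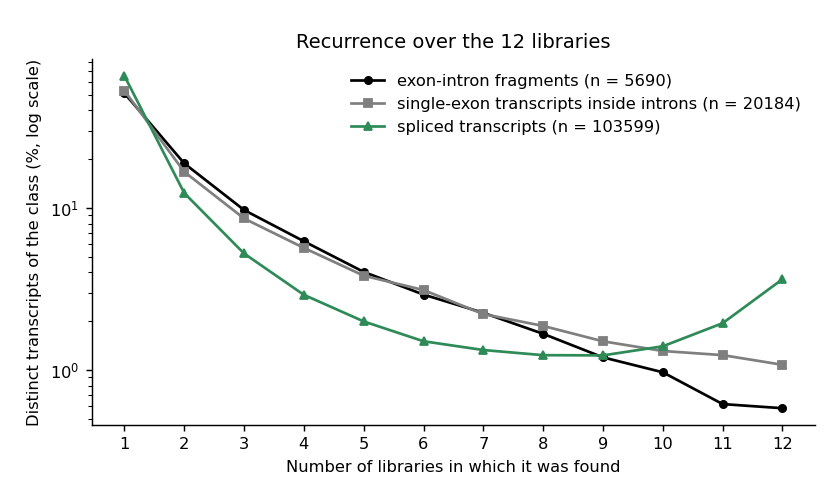
Share of distinct transcripts (percent, log axis) by the number of libraries in which they were found, for exon-intron fragments (black circles), single-exon transcripts inside introns (grey squares) and spliced transcripts (green triangles). Fragments fall from 51.0% in 1 library to 0.580% in all 12, whereas spliced transcripts rise again to 3.63% at 12 libraries.

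Host genes were mostly expressed at low to middle levels. Of the 13780 genes with an intron and a spliced transcript in at least 1 library, 27.6% hosted a fragment, against 4.20% of the 10490 without a spliced transcript. By the median level of spliced transcripts, the share of hosts was 30.6% of 1957 genes at 0 to 0.1 FPKM and 43.6% of 2246 genes at 0.1 to 1 FPKM. It was 28.5% of 6439 genes at 1 to 10 FPKM. The share was 13.0% of 2773 genes at 10 to 100 FPKM and 9.32% of 365 genes at 100 FPKM or more. Hosts had a median spliced level of 1.35 FPKM against 3.48 FPKM for other genes, a median span of 32.6 against 25.8 kilobases, and a median longest exon of 2110 against 1430 bases. Protein-coding genes held 86.0% of loci and lncRNA genes 13.0%, whereas lncRNA genes were 22.4% of the annotated genes with an intron. One locus each was found in 3236 hosts, at least 2 loci in 1010 and at least 5 in 38.

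**Figure D2:**
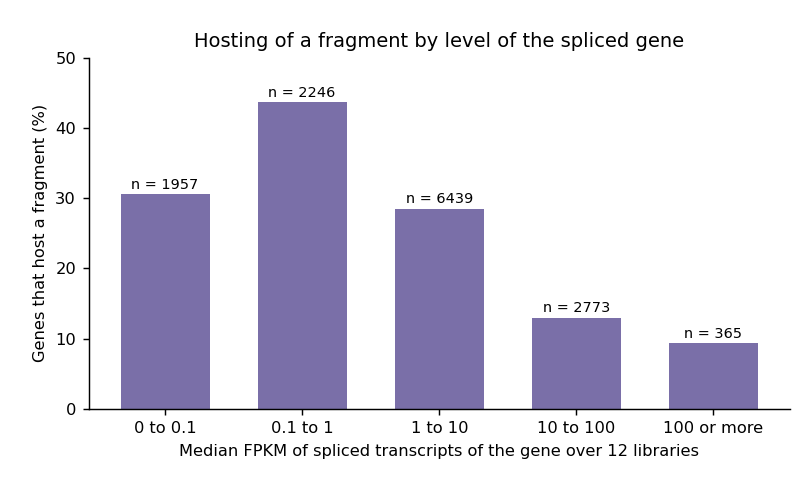
Share of genes with an intron that hosted a fragment (percent, bars from 0) by the median FPKM of their spliced transcripts over the 12 libraries, with the number of genes above each bar. The share is 30.6% at 0 to 0.1 FPKM, 43.6% at 0.1 to 1 FPKM and 9.32% at 100 FPKM or more.

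Among the gene lists, the share of hosts was highest in immediate early genes and lowest in oxidative phosphorylation and ribosomal proteins. Of the 24270 annotated genes with an intron, 17.5% were hosts. Of those with a spliced transcript in at least 1 library, as most list genes had, 27.6% were hosts. Both shares are the background of the counts that follow. The immediate early genes, transcription factors and signalling regulators that are induced within minutes of a stimulus, held 11 hosts of 19 (57.9%). These were ATF3, CTGF, DUSP1, EGR1, EGR3, FOSB, IER3, KLF4, NR4A2, NR4A3 and SIK1. EGR1, a zinc-finger transcription factor, had the locus found most often, in 9 libraries, and CTGF, EGR3 and IER3 were hosts in 1 library each. Splicing factors and their kinases held 14 hosts of 46 (30.4%), near the 27.6% of spliced genes. HNRNPH1 was a host in 10 libraries, MBNL1, a splicing regulator of muscle, in 8, and SRSF4, a serine- and arginine-rich splicing factor, in 7. SRSF2, of the same family, reached 21.9 FPKM in 1 of its 2 libraries.

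The other lists lay near or under the 17.5% of all annotated genes with an intron, and under the 27.6% of spliced ones. Glycolysis and glycogen genes held 5 hosts of 23 (21.7%), lipid synthesis and adipocyte genes 5 of 28 (17.9%), and chaperones 3 of 18 (16.7%). In the lipid list GPAM, which starts triglyceride synthesis, was a host in 7 libraries (3 H and 4 L) and ACACA, the acetyl-CoA carboxylase of fatty acid synthesis, in 5 (1 H and 4 L). Calcium handling held 3 of 21, fatty acid oxidation 3 of 23, ubiquitin ligases and the proteasome 2 of 22, ribosomal proteins 1 of 39, and oxidative phosphorylation 0 of 14. Sarcomere and Z-disc genes held 5 of 44 (11.4%), namely NEB, TPM1, TPM2, TPM3 and TTN, and TPM3, a tropomyosin, was the one found in most libraries, 8. The lists differ in level and intron length, whose part in these shares was not tested.

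The 10 strongest loci of the 33 found in all 12 libraries were led by RIOK2, a kinase of small ribosomal subunit maturation. Its second locus in genomic order lay on exon 7 of 8 (chr2:103809157-103809589, minus strand), with 413 exon and 20 intron bases. It ran from 4.86 to 10.95 FPKM in H (median 8.05) and from 6.39 to 14.9 FPKM in L (median 8.10), above the 5.32 FPKM of the spliced host. The groups overlapped. The annotated acceptor that it crossed was used by no spliced transcript of any library. LOC110260402 followed, with 4.50 to 10.9 FPKM in H (median 6.55) and 4.75 to 8.19 FPKM in L (median 6.61). Its fragments, all without strand, began within chr4:1685478-1685811 and ended within chr4:1687852-1687880 in every library, covered 3 whole introns, and crossed no site that was spliced in any library. C10H9orf3, which encodes an aminopeptidase, had 5.22 to 8.60 FPKM in H and 4.60 to 7.48 FPKM in L at its first locus. Its fragments lay on the last exon and also touched an exon of a second gene in all 12 libraries, so the gene that they belong to is uncertain.

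The remaining 7 of these loci showed 2 patterns. At LOC100626147, LOC110255727, SCUBE3 and MROH5 spliced transcripts of the host were listed at 0 in at least 10 libraries, whereas a fragment of the locus was found in all. MROH5 had a median of 1.68 FPKM with 5 whole introns in its shared region and no crossed site in use. No fragment of H1 or H2 lay over that region, and their levels come from other pieces of the locus. SCUBE3, which encodes a secreted protein with EGF-like repeats, had a median of 1.92 FPKM. Its shared region of 13427 bases, the longest of the loci found in all libraries, held 6 whole introns, but no fragment of H4 lay over it. Of the 25 SCUBE3 fragments, 15 also touched an exon of a second gene, so the gene that these belong to is uncertain. At TMEM140, ZFYVE28 and EPM2AIP1 spliced host transcripts were found as well, in all 12 libraries for TMEM140 and ZFYVE28 and in 8 for EPM2AIP1. TMEM140 had a median of 2.91 FPKM for the fragment against 28.9 FPKM for the spliced gene, with 10438 bases of its only intron. ZFYVE28, a regulator of receptor traffic in endosomes, had 2.46 FPKM at its first locus against 1.66 FPKM spliced. EPM2AIP1, whose protein binds the glycogen phosphatase laforin, had 1.91 FPKM against 0.362 FPKM.

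Where the host was spliced in all libraries, most recurrent loci lay under their host. Of 88 loci found in at least 9 libraries with the host spliced in all 12, 8 had a median above the host on the log2(FPKM + 0.5) scale, and the median over loci was -1.25. The highest of the loci found in all libraries was RIOK2, at 0.61 above its host. CNNM2, a membrane protein of magnesium balance, had 0.748 FPKM on exon 1 of 10 and lay 0.46 above. The lncRNA gene LOC106509733, at its second locus, had 1.33 FPKM and lay 0.44 above.

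Some genes held many loci. CHD4, the ATPase of a chromatin remodelling complex, had 10 loci, and all were of L1. Their levels ran from 0.651 to 12.4 FPKM and their lengths from 221 to 1006 bases. Spliced CHD4 was listed at 0 in L1 and L2 and had 10.5 to 16.8 FPKM in the other 10 libraries, so in L1 the pieces stand where other libraries have the spliced gene. CCDC13 and IL17B had 8 loci each, and ESRRG, a nuclear receptor of oxidative metabolism, LOC100523131 and SLC13A4 had 7 each. DNHD1, ITGA2, LOC100516424, LOC100626097, MARK4 and TTN had 6 each and share the tenth place. The genes differed in recurrence, since the loci of MARK4, a kinase of microtubule-associated proteins, came from 61 fragments in 10 libraries, those of CCDC13 from 34 fragments in 12, and those of ESRRG from 10 fragments in 6. After SCUBE3, the longest shared regions of loci found in all libraries belonged to LOC106509733 (10580 bases), TMEM140 (10505), ZFYVE28 (8543), LOC100737218 (7907), CEP85L (7833), C6H1orf168 (7152), VPS54 (6947), LOC106504205 (6756) and NFAT5 (6035). Their medians lay between 0.604 and 2.91 FPKM. At LOC106509733 no fragment of L1 or L3 lay over the shared region.

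The highest single levels, chosen after they were seen, were at the loci of TTN, HHATL and ANKRD10. A fragment of TTN, which encodes titin, the elastic protein of the sarcomere, had 1497 FPKM in H5 and 717 FPKM in H2 and was in no other library. It covered 4 whole introns between exons 308 and 312 of 315 (chr15:84229971-84238479, minus strand). Spliced TTN was listed at 0 in 11 libraries, all but H2. This locus made up 54.3% of the fragment FPKM of H5 and 38.9% of that of H2. A fragment of HHATL had 307 FPKM in L3 and was in no other library, and the spliced gene was listed at 0 there. This fragment had no strand and also touched an exon of a second gene, so the gene that it belongs to is uncertain. ANKRD10 had 21.9 to 76.2 FPKM in 9 libraries (4 H and 5 L) at its first locus, on its last exon, and spliced transcripts of 18.1 to 57.5 FPKM in all 12 libraries.

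HNRNPH1 shows what a long, multi-intron fragment looked like. It was assembled in all libraries but H2 and L3, always without a strand, and reached from exon 3 to exon 14 of 14. It had 5.25 to 9.17 FPKM in the 5 H libraries with it and 3.61 to 7.20 FPKM in the 5 L libraries. Its ends lay within chr2:78971104-78971117 in all of them, and its starts within chr2:78962422-78962999. The spliced gene had 54.0 to 81.9 FPKM in all 12 libraries, H2 and L3 included. At EGR1, the fragment ran from the only intron into the last exon (chr2:140442322-140445256, plus strand), with 413 intron bases. It had 0 to 6.76 FPKM in H (median 1.00) and 0 to 2.88 FPKM in L (median 1.95). Neither group lay apart from the other at either gene.

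The comparison of H and L asked whether breeding value for IMF went with the unspliced part of the transcriptome. The H libraries held more fragments. Their number ran from 1147 to 1733 in H (median 1340.5) and from 795 to 1247 in L (median 1112.5), so that the groups overlapped. The mean was 1364 ± 203 (SD, n = 6) in H and 1088 ± 156 (SD, n = 6) in L (exact permutation test, two-sided, p = 0.0130, Benjamini-Hochberg adjusted over 6 measures p = 0.0390). Host genes numbered 1143 ± 165 in H and 911 ± 131 in L (SD, n = 6 each, exact permutation test, p = 0.0108, adjusted p = 0.0390). Leaving out H1, H2, H4, L1, L2, L3 or L5 alone took both adjusted p above 0.05, up to 0.0844 without H4 or without L3 (exact permutation tests). Without both H4 and L3, which hold the most and the fewest fragments, the difference fell from 277 to 145 fragments (adjusted p = 0.143).

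As a share of the single-exon transcripts of a library, fragments had close means in both groups. They took 7.41 to 8.71% in H (mean 8.31% ± 0.477) and 7.94 to 8.73% in L (mean 8.32% ± 0.370, SD, n = 6 each), and this share did not pass the test (exact permutation test, p = 0.950). Single-exon transcripts numbered 16451 ± 2504 in H and 13036 ± 1573 in L, and those wholly inside introns 6998 ± 1415 and 4904 ± 963 (SD, n = 6 each). Over the 12 libraries the number of fragments went with the number of transcripts inside introns (Pearson's r 0.978, Spearman's rho 0.916, permutation tests with p = 1e-05 and 6e-05, adjusted over 8 coefficients 8e-05 and 0.00024). The value of 1e-05 is the smallest that 100000 resamples can give. Without H4 and L3 Pearson's r was 0.905. Both counts come from the same libraries and the same assembly.

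Depth moved with the number less closely. The coverage that 1 FPKM stands for, which grows with the mapped reads of a library, had a mean of 9.72 in H and 9.62 in L. Its Pearson's r with the number of fragments was 0.582 (permutation test, p = 0.0426, adjusted p = 0.0853) and its Spearman's rho 0.531 (p = 0.0781, permutation test, adjusted p = 0.125). Without H4 and H5 Pearson's r was 0.454. Per unit of this depth there were 141 ± 15.0 fragments in H and 113 ± 13.0 in L (SD, n = 6 each, exact permutation test, adjusted p = 0.0390). Within the H group, the number of fragments and the labelled IMF were related over 6 pigs by 0.840 (Pearson's r) and 0.771 (Spearman's rho) (exact permutation tests, p = 0.0250 and 0.103, adjusted p = 0.0667 and 0.137). Within the L group they were -0.20 and 0.20 (exact permutation tests, p = 0.817 and 0.714). Neither relation passed the adjustment. Without the 2 pigs farthest from the median IMF of their group, Pearson's r over the 4 left was 0.916 in H and -0.75 in L (exact permutation tests, p = 0.167 and 0.125, adjusted p = 0.222 and 0.143).

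The remaining measures did not pass the adjusted threshold of 0.05. Fragments that cover a whole intron numbered 207 to 366 in H (mean 283 ± 52.9) and 153 to 266 in L (mean 226 ± 38.7, SD, n = 6 each, exact permutation test, p = 0.0541, adjusted p = 0.108). Fragments took 0.276 to 0.760% of the summed FPKM in H (median 0.361%) and 0.282 to 0.338% in L (median 0.296%, exact permutation test, p = 0.0996, adjusted p = 0.149). The 2 highest values were those of H5 and H2, the libraries with the TTN fragment. Without that locus their shares were 0.348 and 0.332%. At the 13 loci found in all libraries with a spliced host in all, the fragment lay -0.69 ± 0.37 from its host on the log2 scale in H and -0.96 ± 0.41 in L (SD, n = 6 each, exact permutation test, p = 0.234, adjusted p = 0.281).

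**Figure D3:**
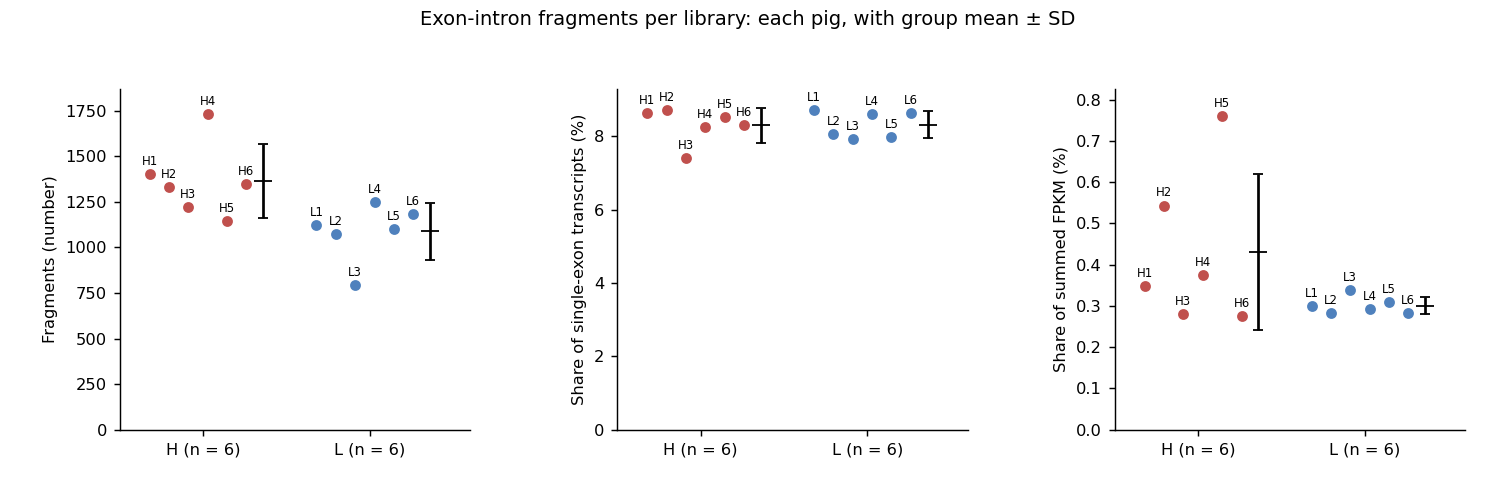
Number of exon-intron fragments per library, their share of single-exon transcripts (percent) and their share of the summed FPKM (percent), 1 point per pig with its name, H in red and L in blue, and the group mean ± SD beside the points (n = 6). Fragments run from 1147 to 1733 in H and 795 to 1247 in L, the share of single-exon transcripts lies between 7.41 and 8.73% in both groups, and H5 and H2 hold the highest shares of FPKM.

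The markers of other cells overlapped between the groups in their summed levels, and no marker list was tested. All 7 adipocyte markers had a higher mean in H, with a summed level of 126 to 225 FPKM in H and 73.1 to 137 FPKM in L, and so did all 5 endothelial markers (48.4 to 118 and 34.4 to 93.8 FPKM). Of the erythroid markers, 3 of the 4 annotated ones were higher in H (85.1 to 297 and 73.2 to 160 FPKM, with SLC4A1 at 0 in every library), as were 3 of 5 macrophage markers (8.53 to 16.1 and 6.12 to 17.8 FPKM, with CD68 at 0) and 3 of 5 fibroblast markers (144 to 562 and 163 to 690 FPKM). Of the muscle fibre markers 5 of 7 were higher in H. The part of these cells in the number of fragments was not tested.

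Locus by locus, 580 loci were found in at least 6 libraries and entered the fit over all 20055 distinct transcripts with that recurrence (limma on log2(FPKM + 0.5), two-sided, Benjamini-Hochberg adjusted threshold 0.1). Of these loci 2 passed, 1 higher and 1 lower in H, while 38 of all transcripts did (0.189%, with 0.13% higher and 0.0598% lower in H). At an unadjusted p under 0.05 there were 53 loci (39 higher and 14 lower in H), or 9.14% of the 580, beside 6.98% of all transcripts (4.16% higher and 2.82% lower in H), 11.9% of transcripts inside introns and 5.35% of spliced ones. The median difference over the 580 loci was 0.11 on the log2 scale, and over all transcripts it was 0.02. A locus can reach 6 libraries through 1 group alone, in which case it has to differ, so these counts are a description. Of all 5690 loci, 2283 (40.1%) were found in H alone, 1356 (23.8%) in L alone and 2051 in both groups, beside 39% in H alone and 29.8% in L alone of all distinct transcripts. A locus of 1 library falls in 1 group by construction. Of the 2786 loci of at least 2 libraries, 508 (18.2%) were found in H alone and 227 (8.15%) in L alone, beside 13.5 and 8.27% of all distinct transcripts and 21.5 and 6.53% of those inside introns. At least 5 libraries of H and none of L held 8 loci (0.141%, against 0.0738% of all distinct transcripts and 0.287% of those inside introns), and the reverse held for 2 (0.0351%, against 0.0257 and 0.0545%). All 6 libraries of 1 group and none of the other held 0.00989% of all distinct transcripts for H and 0.00264% for L, and REM1 was the only fragment locus of this kind.

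REM1 encodes a small GTPase that inhibits voltage-gated calcium channels. Its fragment ran from 592 bases inside the last intron into exon 5 of 5 (chr17:35217567-35218768, plus strand), over the acceptor boundary shown above. It had 0.381 to 0.762 FPKM in H (median 0.470) and was in no L library. The groups did not overlap. The difference was 1.01 ± 0.11 on the log2(FPKM + 0.5) scale (SE, n = 6 pigs each, limma, adjusted p = 0.0019), and with L listed at 0 its size depends on the pseudocount. The locus entered the fit through the 6 H libraries alone and so had to differ, which makes this p a description and not a test. The spliced host was found in all 12 libraries, with a median of 1.12 FPKM in H and 0.965 FPKM in L, and against its host the fragment had an adjusted p of 0.441 (difference 0.78 ± 0.25, SE, limma). In L2 and L5 single-exon transcripts of 0.412 and 0.832 FPKM lay in the same intron and stopped before the exon. They ended 9713 and 9664 bases from the 5′ end of the gene, and exon 5 begins at 9815. The fragment of H4, with the highest level, ended at 9857, whereas the other H fragments ended at 10423 to 10426. With all single-exon transcripts over that intron counted, the L libraries ran from 0 to 0.832 FPKM and the difference was 0.63 (exact permutation test, two-sided, p = 0.0455). This count still holds the fragments that selected the locus, so this p, which is unadjusted, is a description too.

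LOC100526084 is a lncRNA gene of 2 exons (chr17:32594223-32604508, plus strand). Its locus had 0.947 to 1.53 FPKM in L (median 1.34), and in H it was found in H5 alone, at 0.441 FPKM. The locus joins separate pieces at both ends of the gene, and their levels were summed. H5 and L5 had a piece past the donor site alone, L1 one past the acceptor site alone, and L2, L3, L4 and L6 both. The groups did not overlap in this sum, and the difference was -1.69 ± 0.20 on the log2 scale (SE, n = 6 pigs each, limma, adjusted p = 0.0041). The 6 L libraries alone carried the locus past the filter, so this p too is a description. With a filter on the mean level in place of the number of libraries, the adjusted p was 0.228 (limma). Other single-exon transcripts lay over the same gene. In H1, H3, H4 and H6 single-exon transcripts of 0.833 to 1.46 FPKM crossed the same donor boundary but started 44 to 178 bases before the annotated start, so they reached past the gene and did not meet the rule, and the same held for 1 transcript of L1. The transcript of H1 and one of L5 also ran past the annotated end of the gene. So did a second one of H3, which was assembled on the opposite strand. The fragments of H5 and of L2 to L6 at that side started 1 to 27 bases inside it. All single-exon transcripts over the intron, on either strand, were then counted. H ran from 0 to 2.23 FPKM (median 1.27) and L from 1.38 to 3.89 FPKM (median 2.16), so that the groups overlapped (difference -0.96, exact permutation test, two-sided, p = 0.0260). The highest H value, of H3, includes 1.40 FPKM of its transcript on the opposite strand. Here too the fragments that selected the locus are counted, so this unadjusted p is a description. When loci were joined at an overlap of 50% in place of 1 base, the larger piece had a difference of -0.69 (limma, adjusted p = 0.536).

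**Figure D4:**
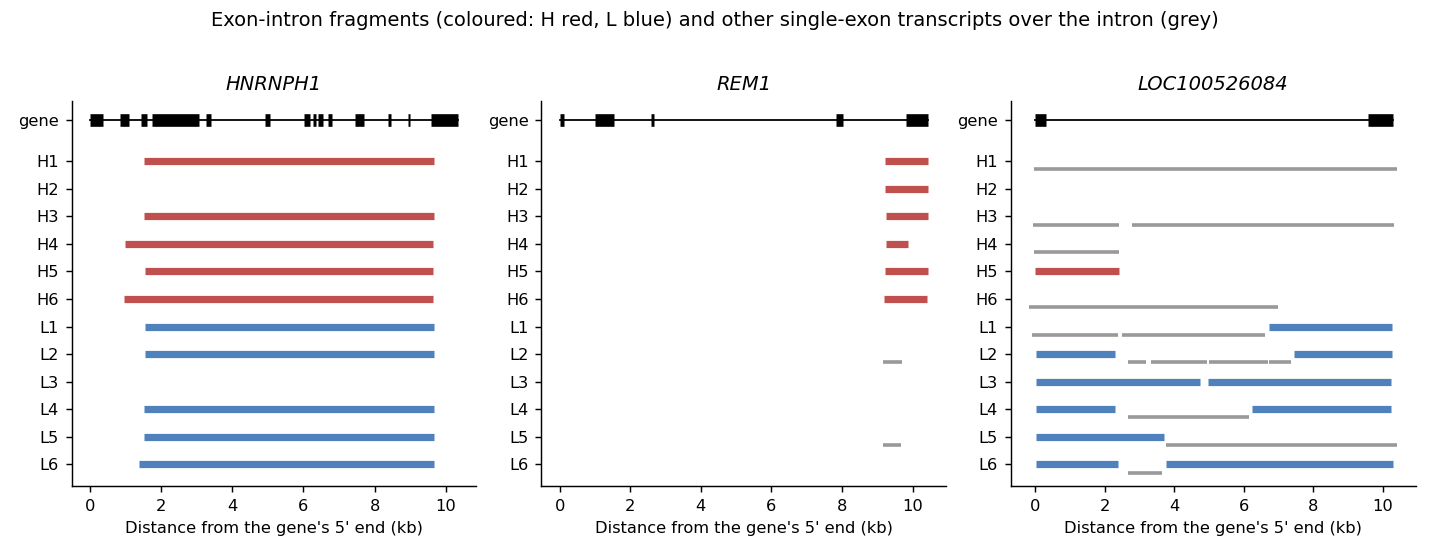
Fragments of HNRNPH1, REM1 and LOC100526084 in each library (H red, L blue) below the annotated exons (black boxes), with other single-exon transcripts over the intron, on either strand, in grey, by distance from the 5′ end of the gene in kilobases. HNRNPH1 shows the same fragment in 10 libraries, REM1 a fragment in the 6 H libraries and grey transcripts that stop in the intron in L2 and L5, and LOC100526084 grey transcripts in 4 H libraries that begin before the gene.

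The next 6 loci by p did not pass the threshold. PPP6R3, a regulatory subunit of protein phosphatase 6, had 1.69 to 3.00 FPKM in all L libraries (median 1.86) at its second locus and was found in H3 alone in H, at 2.09 FPKM (chr2:4403731-4404376, minus strand). The difference was -1.94 ± 0.41 (SE, limma, adjusted p = 0.154), and without H3 the adjusted p was 0.00104 (limma). This locus, too, met the filter through the 6 L libraries alone. Without H3 every H pig left is at 0, so both p-values are a description. In H3, L1, L4, L5 and L6 the fragment held exon 25 of 28 with intron on both sides. In L2 and L3 it began inside the exon and ran past the donor site alone. Neither site was used by a spliced transcript in any library. SMARCD3, a subunit of the SWI/SNF chromatin remodelling complex, had 1.58 to 3.39 FPKM in H (median 2.84) and 0 to 1.96 FPKM in L (median 0), with 1 whole intron. LOC102166432, a lncRNA gene, had 0 to 0.665 FPKM in H (median 0.600) and 0.192 FPKM in L5 alone in L. These groups overlapped at each locus. Without H1 LOC102166432 passed (adjusted p = 0.0188, limma), and without L5 SMARCD3 did (adjusted p = 0.0824, limma). H1 was the only H pig at 0 at LOC102166432, and L5 held the highest L level at SMARCD3. SMARCD3 met the filter through its H libraries alone. These passes are a description.

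TEX9 had 1.58 to 3.82 FPKM in H (median 2.91) and 0 to 2.63 FPKM in L (median 0.319). IFRD1, a transcriptional coregulator of muscle regeneration, had a fragment over 8 whole introns in 5 L libraries and in H1, with 0 to 3.98 FPKM in L (median 2.29). TMEM175, a lysosomal ion channel, had 0.266 to 0.466 FPKM in H (median 0.354) and 0 to 0.241 FPKM in L (median 0.106), with no overlap of the groups. TEX9 and TMEM175, like SMARCD3, met the filter through the 6 H libraries alone. From SMARCD3 to TMEM175 the adjusted p of these loci ran from 0.276 to 0.495 (limma), and the plot of these loci shows how far each pattern rests on libraries at 0.

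**Figure D5:**
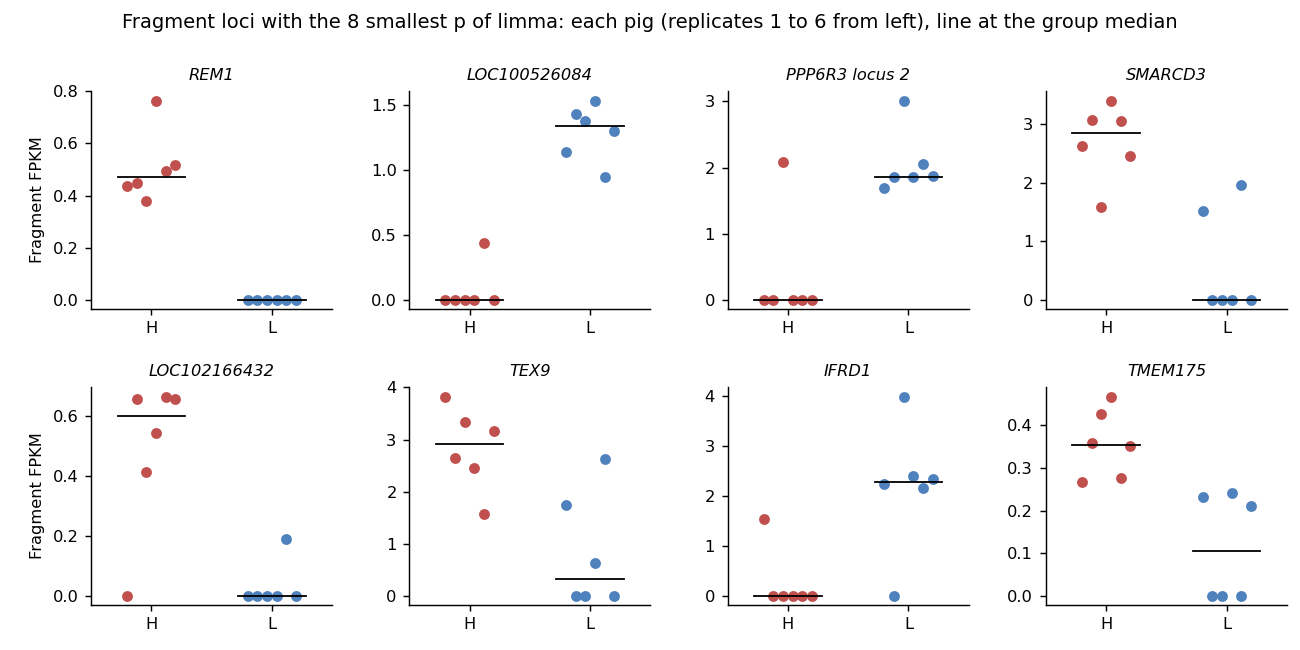
Fragment FPKM in each pig (points, replicates 1 to 6 from left) for the 8 loci with the smallest p of limma, H in red and L in blue, with a line at the group median. REM1 is at 0 in every L library, LOC100526084 and PPP6R3 locus 2 are above 0 in 1 H library each, and the other loci are at 0 in part of a group.

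Relative to the host, 270 loci with the host spliced in all libraries were tested, and 0 passed (0%, limma, adjusted threshold 0.1). At an unadjusted p under 0.05 there were 18 (6.67%), 12 higher (4.44%) and 6 lower (2.22%) in H. The 8 smallest p belonged to PPP6R3 locus 2 (difference -1.84), SMARCD3 (1.93), ADCY5 (0.77), REM1 (0.78), IFRD1 (-1.45), ID4 (-0.87), FAM126B (0.89) and LOC102158906 locus 2 (-0.74), with adjusted p from 0.187 to 0.540 (limma). Without H3 PPP6R3 locus 2 passed (adjusted p = 0.0108, limma), and without L5 SMARCD3 did (adjusted p = 0.0638, limma). H3 was the only H pig with the PPP6R3 fragment, and L5 had the highest SMARCD3 fragment level in L. Both passes are a description. ADCY5, an adenylyl cyclase, had a fragment into exon 2 of 22 in 5 H libraries and L5. ID4, an inhibitor of helix-loop-helix transcription factors, had one past exon 1 in 5 L libraries. The piece of H5 at the ID4 locus did not reach exon 1.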

How the data were processed

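The authors trimmed the reads with Trim Galore, checked them with FastQC, mapped them to Sscrofa11.1 with TopHat2 2.1.0 and the Ensembl gene models, and ran Cufflinks 2.2.1 on 1 library at a time. The deposited values used are the FPKM of each assembled transcript, scaled by the authors' software to the mapped fragments of its library, with its exons, strand and coverage. Genes are not named in the files, and libraries are not scaled to each other.

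Here transcripts of at least 200 bases on chromosomes were set against the RefSeq annotation of the same build. Of 171110 distinct introns in the files, 98.3% had standard end bases on this sequence. Introns were gene bases outside every annotated exon, and gaps under 30 bases were not counted as introns. A fragment was given to the gene with which it shares most exon bases. Host level was the summed FPKM of spliced transcripts of the gene.

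The 6 measures per library were compared by exact permutation tests over 924 arrangements, whose smallest p is 0.0022. Distinct transcripts found in at least 6 libraries were scaled by median ratios and fitted on log2(FPKM + 0.5), by limma 3.58.1 (R 4.3.3) and a trend in the variance. On this scale the change of low transcripts is understated. Cuffdiff, the authors' test, needs alignments, which were not used here. Python 3.11.15 did the rest, and the fits were tested on simulated data. For limma these were normal values, which do not copy the libraries at 0 of many loci. Each pig is 1 sample, and p-values measure the spread between pigs.

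The members, gene lists and tests were chosen with earlier results of these data known. Loci were named when among the 10 strongest found in all 12 libraries, the 8 smallest p, the 8 smallest p relative to the host, the 10 hosts with most loci, the 6 short whole introns found in all libraries (3 existed), list genes with a locus in at least 9 libraries, the 3 highest over their host, or the 10 longest. Other genes of the lists, and the loci of TTN, HHATL and ANKRD10, are not named by the rule, and their values had been seen when they were picked. Alternatives were other limits for intron bases, length, level, recurrence, overlap and gene span, other pseudocounts and scalings, no variance trend, a block for the individual number, and leaving out 1 pig at a time.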

Additional observations from a re-analysis of the deposited data

Results flagged for a closer look

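In 10 of 52 groups of 6 pigs, 1 pig stood apart from the other 5 by Dixon's test. Chance flags about 1 in 20 groups of unselected values, but these loci were chosen by their values, and a group with 5 pigs at 0 is flagged whatever the last value, so the count is not to be read against it. For the measures per library this was H3, with the lowest share of fragments among single-exon transcripts, 7.41%. For the named loci the pig with the highest value stood apart. At RIOK2 locus 2 this was L3 with 14.9 FPKM, at SCUBE3 H3 with 6.04 FPKM, at REM1 H4 with 0.762 FPKM, and at EGR1 H3 with 6.76 FPKM. At 4 further loci a pig stood apart with the other 5 of its group at 0, namely H5 at LOC100526084 with 0.441 FPKM, H3 at PPP6R3 locus 2 with 2.09 FPKM, L5 at LOC102166432 with 0.192 FPKM and H1 at IFRD1 with 1.55 FPKM. At PPP6R3 locus 2 L3 also stood apart in its group, with 3.00 FPKM.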

How the results depend on the processing

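The limits are few pigs, fragments near the level at which the assembler stops, an annotation other than the authors', and 0 for what was not assembled. The higher number of fragments and of host genes in H kept its direction under each alternative run. It no longer passed with loci of at least 2 libraries (differences of 169.5 and 143, adjusted p = 0.0812 each, exact permutation tests) and without H4 and L3 (144.6 and 121.4, adjusted p = 0.143). The last choice, like those on a second gene, the gene ends, a spliced host and TTN, was made after seeing the data. With each pig left out in turn the differences ran from 203.1 to 320.3 fragments and from 170.6 to 264.4 host genes, those of whole-intron fragments from 40.7 to 72.5 and those of the share of FPKM from 0.0637 to 0.161 points. Without H5 whole-intron fragments passed, and without H3 or H6 the share of FPKM did (adjusted p = 0.0433). Whole-intron fragments also passed at 0.5 FPKM or more (38.8, adjusted p = 0.0130), and the level over the host with 88 loci of at least 9 libraries (0.15, adjusted p = 0.0303).

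The difference in the share of single-exon transcripts, -0.0156 points, turned its sign with more than 50 intron bases (0.00668), at least 400 bases (0.0308), 0.5 FPKM (0.204), no exon of a second gene (0.0723), transcripts past the gene ends (0.138) and a spliced host (0.124), and with pigs left out it ran from -0.0964 to 0.164. The cause was not tested, and no value passed.

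The 2 loci called became 0 among those of at least 9 libraries (which REM1 and LOC100526084 do not reach, with 22 at an unadjusted p under 0.05, limma), 0 with a mean of 0.5 FPKM as the filter (29 at that p), 1 at 50% overlap, and 2 to 3 with pigs left out. Relative to the host, the 0 loci became 2 with a pseudocount of 0.1, 1 with a mean of 0.5 FPKM, 1 without a variance trend, and 0 to 2 with pigs left out, namely 1 without H3 and 2 without L5.

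The individual numbers of H and L do not pair the pigs. Deviations of same-numbered pigs correlated from -0.03 to 0.03 over all transcripts and from -0.04 to 0.16 over fragments (2 of 6 above 0.1), and 1 of 6 pigs correlated best with its own number. With the number as a replicate block, the differences of 276.8 fragments and 231.5 host genes had an adjusted p of 0.0938 (exact sign-flip test, smallest p 0.0313), and 0 loci were called, with 48 at an unadjusted p under 0.05 (REM1 adjusted p = 0.247, LOC100526084 0.357, limma).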
